A study of Arabidopsis thaliana with 60 samples.

Results

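The transcripts described here are those of the 79 listed genes whose identifiers begin with ATMG, the prefix of genes encoded by the mitochondrial genome of Arabidopsis thaliana, out of 21450 listed genes in all. They are all listed genes with this prefix, and the rule uses no expression value. Plant mitochondrial DNA encodes a small part of the respiratory chain and of the ATP synthase, together with some ribosomal proteins, proteins of cytochrome c maturation and many open reading frames of unknown function, and it is inherited through the mother. Stable plant mitochondrial mRNAs carry no long poly(A) tail, and polyadenylation marks them for degradation, so that a library made from poly(A) RNA captures them incompletely. In Arabidopsis a large stretch of mitochondrial DNA has also been inserted next to the centromere of chromosome 2, where genes with AT2G identifiers repeat mitochondrial genes nearly or fully letter by letter.

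RNA was taken from the aerial parts of single plants 18 days after sowing (DAS), in 3 groups of 5 plants. The groups were diploids from 1 father (biparental diploids, BD, 2n), triploids from 1 father (biparental triploids, BT, 3n) and triploids from 2 fathers (triparental triploids, TT, 3n). All 15 plants had an ein3-1 mother, a mutant in a transcription factor of ethylene signalling. BD came from pollen of a 2n donor carrying pRPS5a::mGAL4-VP16/-; pUAS::BAR-YFP/-, BT from a 4n donor of that genotype, and TT from double pollination. In these constructs the RPS5a promoter, described as ubiquitous in the study, drives the activator of a gene for herbicide resistance fused to YFP. All seedlings were selected on glufosinate-ammonium at 25 mg/l, moved to soil at 9 DAS and grown at 23 °C with 16 h of light and 8 h of darkness. The 60 deposited samples are 4 technical replicates of each plant, merged by the authors into a single profile, and every n below counts plants. Replicate numbers are those of the labels and belong to different plants.

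Between 19534646 and 30756482 reads per plant were recovered from the normalized counts, and between 837 and 2037 of these fell on the 79 mitochondrial genes. The read numbers of a gene are whole-number estimates by Salmon, the program with which the authors quantified expression. The leaf markers were abundant in every plant (RBCS1A, a small subunit of Rubisco, had normalized counts of 281126 to 651339), and the 4 flower markers were present at lower and variable levels, with AP3 between 6.22 and 22, PI between 2.86 and 15.6, AG between 4.32 and 81 and SEP3 between 14 and 288, while none of the 4 root marker genes and none of the 3 mitochondrial and 12 other ribosomal RNA genes that were looked for is listed. Counting intervals below cover counting error only, because the reads carry no molecular identifiers. In whole shoots, fewer cells of a type and less RNA per cell cannot be told apart.

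Some sequences explain which reads these values can be made of. In the RefSeq assembly TAIR10.1, 69.0% of all windows of 75 bases, the read length, of the mitochondrial genome of 367808 bases were also present without any mismatch on chromosomes 1 to 5, and 254750 windows of chromosome 2 had an exact mitochondrial copy, against 3289 or fewer on each of the other chromosomes. Of 37 protein-coding mitochondrial entries of RefSeq, in which the parts of trans-spliced genes are counted separately, 16 had over 95% of their windows on a nuclear chromosome and 6 had none. The reads were aligned to TAIR10, whose mitochondrial sequence may differ, and positions below are matches of the printed letters to TAIR10.1. The first sequence is shown because ATMG00980, the most variable of the 26 better covered mitochondrial genes described below, is tied by its note to a copy of rps12. It runs from the end of nad3, a subunit of complex I, to the beginning of rps12, a ribosomal protein, with the stop codon of nad3 and the start codon of rps12 in capitals and 45 bases between them.
nad3 to rps12: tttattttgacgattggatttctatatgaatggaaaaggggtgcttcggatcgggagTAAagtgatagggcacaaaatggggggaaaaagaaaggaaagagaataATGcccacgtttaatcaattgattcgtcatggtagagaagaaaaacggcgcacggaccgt
This run of 165 bases lies at chrM:288341-288505 and again at chrM:306997-307161, both on the plus strand, within a repeat of 175 bases. It occurs 3 more times on chromosome 2, at chr2:3270305-3270469 and chr2:3288930-3289094 on the plus strand and at chr2:3241600-3241764 on the minus strand. The next sequence, the first 75 bases of atp8 with its start codon in capitals, stands for genes whose mitochondrial and nuclear copies are the same over a whole read. It lies at chrM:247418-247492 on the minus strand and at chr2:3386292-3386366 on the plus strand.
atp8 start: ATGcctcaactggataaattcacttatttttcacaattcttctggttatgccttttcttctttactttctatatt
The last pair shows a base at which the genomic sequences of a nuclear and a mitochondrial copy differ. It lies in the stretch matched by AT2G07698, the partner of ATMG01190, but upstream of the atp1 coding sequence, a subunit of the ATP synthase. All 1450 windows of atp1 itself also occur on a nuclear chromosome of this assembly. Full-length reads within the gene that match the genomic sequence therefore cannot tell the copies apart. The windows compare DNA, and bases changed in the RNA were not considered.
before atp1, mitochondrial: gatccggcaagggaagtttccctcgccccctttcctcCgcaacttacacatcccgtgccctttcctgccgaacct
before atp1, chromosome 2: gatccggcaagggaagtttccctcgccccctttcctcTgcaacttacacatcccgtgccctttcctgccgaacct
The mitochondrial copy lies at chrM:69161-69235 on the minus strand and the nuclear one at chr2:3361891-3361965 on the plus strand, and the base in capitals is the difference C38T, counted from 1 at the 5′ end and given as mitochondrial base, position and nuclear base.

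Mitochondrial transcripts were a minor part of every profile. The mitochondrial genes took 0.00619%, 0.00471%, 0.00393%, 0.00563% and 0.00507% of the normalized counts in BD replicates 1 to 5. In BT the shares were 0.00527%, 0.00497%, 0.00367%, 0.00606% and 0.00406%, and in TT they were 0.0077%, 0.004%, 0.00364%, 0.00404% and 0.00417%. The groups overlapped, and TT replicate 1 stood above all other plants, with an exact Clopper-Pearson 95% interval of 0.00737% to 0.00804%. BD had a mean of 0.0051% ± 0.000866 (SD, n = 5), BT one of 0.00481% ± 0.000955 (SD, n = 5), and TT one of 0.00471% ± 0.00168 (SD, n = 5). Without TT replicate 1 the TT mean was 0.00396% ± 0.000228 (SD, n = 4). For comparison, the 88 listed plastid genes held 0.0476% to 0.117% of a plant's normalized counts. TT replicate 1 also had the highest plastid share, 0.117%, and its total of 26458900 reads lay within the range of the other plants. Over the 15 plants the mitochondrial share had an r of 0.5 with the plastid share (rho 0.59, 0.78 without the 2 farthest plants), of -0.18 with the share of the leaf markers (rho -0.47, -0.54 without 2) and of 0.17 with the summed flower markers (rho 0.16, 0.07 without 2). The part of these in the mitochondrial result was not tested.

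**Figure D1:**
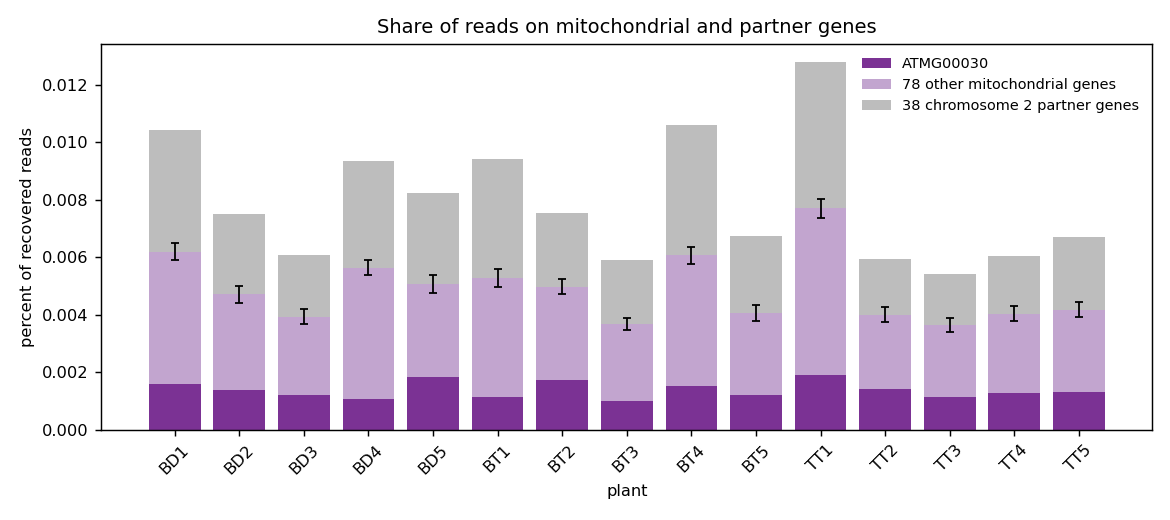
Percent of the recovered reads of each plant (x axis, 5 plants per group) that fell on ATMG00030, on the 78 other mitochondrial genes and on 38 chromosome 2 partner genes, stacked from 0. Error bars are exact Clopper-Pearson 95% intervals of the mitochondrial share, which was highest in TT replicate 1 (0.0077%) and lowest in TT replicate 3 (0.00364%).

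The reads were spread unevenly over the 79 genes. A mean of 50 or more normalized counts was reached by 3 genes (ATMG00030, ATMG01190 and ATMG01360) and one of 10 or more by 26, while 38 had a mean under 5 and 14 one under 1. Reads were present in all 15 plants for 42 genes, and the other 37 had none in at least 1 plant, so that a plant had reads on 59 to 74 of the 79. On the recovered reads, 76 of the 79 genes have reads in at least 3 of 5 plants of some group, the condition under which the study kept a gene, and 3 have not. The median mitochondrial gene had a mean normalized count of 5.58, against 282 over all listed genes. Per length, the median of the mean TPM (transcript abundance per length, scaled to the same sum in every plant) was 0.709 over the mitochondrial genes, 17.9 over the plastid genes and 7.66 over all genes.

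A single transcript, ATMG00030, dominated on the scale per length. Neither the files nor the annotation used here gives it a name or a function. Its TPM was 193, 171, 135, 132 and 216 in BD replicates 1 to 5, 129, 213, 116, 168 and 142 in BT, and 228, 172, 135, 148 and 163 in TT. The groups overlapped over almost the whole range, and the differences between group means were smaller than the spread between plants. ATMG00030 carried 64% of the mitochondrial TPM on average, and its mean TPM of 164 ± 35.1 (SD, n = 15) placed it at rank 858 among all listed genes, above 96% of them. The next gene, ATMG01000, had a mean TPM of 15.4 ± 10.9 (SD, n = 15), so that ATMG00030 stood 10.7-fold above it.

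Behind these followed ATMG00980, which RefSeq's note on its nuclear copy names as a member of the ribosomal protein S12/S23 family, a protein of the small ribosomal subunit, with a mean TPM of 9.04 ± 7.46 (SD, n = 15). ATMG01370 had a mean TPM of 4.47, ATMG01080, subunit 9 of the membrane part F0 of the ATP synthase, 4.00, ATMG00530 3.55, ATMG00160 3.18, ATMG00516 3.09, ATMG00650 2.72 and ATMG01360 2.32. Some of these places rest on few reads per plant, 4 to 15 for ATMG00530, 1 to 14 for ATMG00516 and 0 to 7 for ATMG00650. ATMG01360, placed below them, had 47 to 108. The SD over the 15 plants was 2.66 for ATMG01370, 1.95 for ATMG01080, 1.29 for ATMG00530 and 0.615 for ATMG01360, so that neighbours in this order below ATMG00980 did not differ beyond their spread. In TPM the first 3, 5 and 10 genes carried 72.9%, 76.3% and 82% of the mitochondrial sum. By normalized counts, which grow with the length of a gene, the distribution was flatter. ATMG00030 took 28.8% of the mitochondrial counts on average (19.2% to 36.3% in a plant), the first 3 genes 41.4%, the first 5 48.7% and the first 10 62.3%. Only 5 genes were among the first 10 on both scales.

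**Figure D2:**
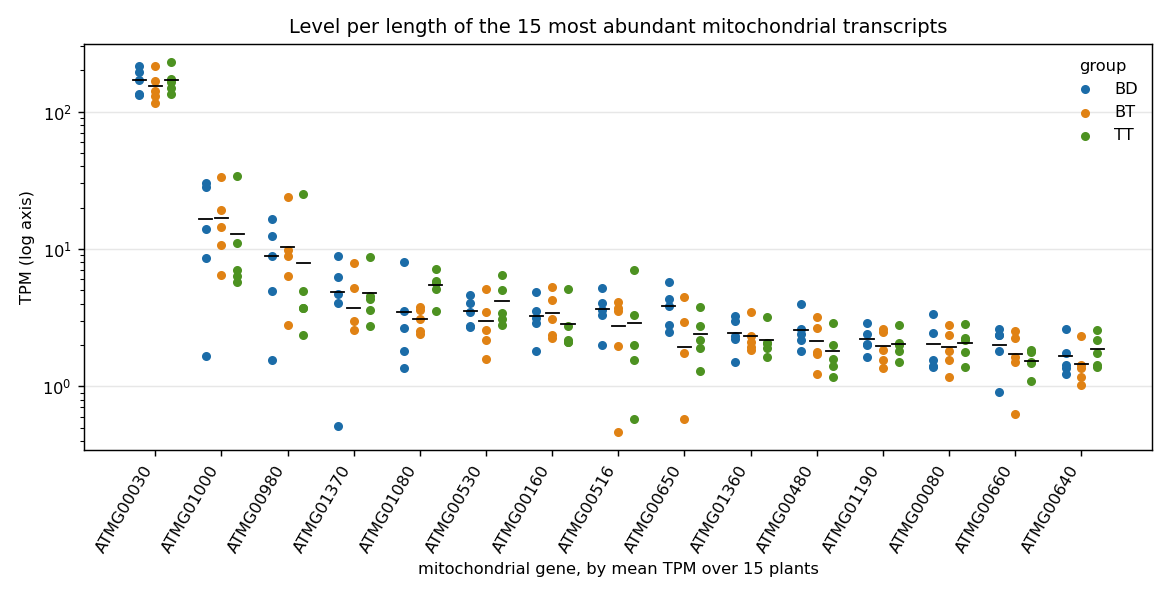
TPM (y axis, log scale) of the 15 mitochondrial genes with the highest mean TPM, with 1 point per plant and a horizontal line at the mean of each group of 5 plants. ATMG00030 lies between 116 and 228 TPM in all 15 plants and every other gene at 34 TPM or less, and a TPM of 0, found in 1 plant each for ATMG01370 and ATMG00650, enters the mean but cannot be drawn on a log axis.

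The genes differed in how strongly they varied between plants. For the 26 genes with a mean count of 10 or more, the variance over the 15 plants was 0.914 to 35.7 times the variance that counting error alone would give, with a median of 3.5. It exceeded 2 times the counting variance for 21 of the 26 genes and 5 times for 10. ATMG00660 (0.914 times) and ATMG00220 (0.928 times), named apocytochrome b, the cytochrome subunit of complex III, varied no more than counting error. The strongest variation was that of ATMG00980, at 35.7 times, and ATMG01000, at 23.2 times. ATMG00030 had a coefficient of variation (CV) of only 20.7%, but its many reads made this 14.4 times the counting variance.

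ATMG00980 had normalized counts of 79.5, 71.3, 32.9, 46.1 and 8.74 in BD replicates 1 to 5, of 50, 48.6, 16.8, 148 and 32.4 in BT, and of 129, 20.6, 20.2, 14.9 and 25.8 in TT. BT replicate 4 and TT replicate 1 were far above the other plants, BD replicate 5 was the lowest, and the 3 groups overlapped. The highest plant exceeded the lowest 17.0-fold. ATMG01000, which carries no name in the annotation used here, went the same way, with 76.2, 86.5, 30.7, 39.2 and 5 in BD, 52, 42.9, 20.5, 111 and 29.2 in BT, and 96, 17.3, 19.2, 23.5 and 30.6 in TT. The same plants were highest and lowest, at a ratio of 22.3. Over the 15 plants, which the genes share, Pearson's r of log2(normalized count + 1) between ATMG00980 and ATMG01000 was 0.96 and Spearman's rho 0.96. It was 0.95 without the 2 plants farthest from the median of ATMG00980 (BT replicate 4 and TT replicate 1) and 0.96 for deviations from the group means.

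The same pattern was present in nuclear genes that copy the stretch from nad3 to rps12 or mitochondrial DNA beside it. AT2G07675, the chromosome 2 copy of ATMG00980, differed from it by at most 1 estimated read in each plant and had the same estimate in 4 plants. It matches the mitochondrial genome at 100%, so that both counts are not separate measurements. AT2G07751, annotated as similar to NADH dehydrogenase 3, a complex I subunit, had normalized counts of 160, 127, 40.6, 64.5 and 23.7 in BD, 90.1, 73.4, 30.8, 234 and 42.1 in BT, and 195, 34.7, 15.4, 21.3 and 51.6 in TT. Again BT replicate 4 and TT replicate 1 were the highest. Pearson's r with ATMG00980 over the 15 plants was 0.94 for AT2G07751 (rho 0.96, r 0.9 without BT replicate 4 and TT replicate 1), 0.9 for AT2G07773 (rho 0.93, r 0.82 without them) and 0.92 for AT2G07674 (rho 0.92, r 0.87 without them). In TAIR10.1 the region matched by AT2G07751 includes nad3 and that matched by AT2G07773 includes the other mitochondrial copy of the sequence from nad3 to rps12 printed above. The region matched by AT2G07674, the partner of ATMG01010, ends at chrM:287942, before nad3 starts at chrM:288044. The counting did not use strand, and the alignment allowed reads with several matching places. The transcript and the copy from which these reads came cannot therefore be told apart.

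Around this pair, 6 of the 26 genes formed the largest group that varied together, namely ATMG00980, ATMG01000, ATMG00510, ATMG00513, ATMG00520 and ATMG00090. Of their 15 pairs, 14 had a Pearson's r over 0.6, with a range of 0.54 to 0.96 and a median of 0.7, and the lowest r after leaving out the 2 farthest plants was 0.37. The group was read from these same values, so that its high coefficients are a description. In ATMG00510 the normalized count ranged from 14.9 in BT replicate 3 to 59.6 in TT replicate 1, in ATMG00513 from 16.3 in TT replicate 3 to 48 in TT replicate 1, in ATMG00520 from 6.4 in TT replicate 4 to 24 in TT replicate 1, and in ATMG00090 from 32.4 in BT replicate 5 to 66.7 in TT replicate 1. TT replicate 1 was thus the highest plant for each of these 4 genes. It was also the highest for 8 of the 26 genes in all, against 7 for BD replicate 4 and 4 for BT replicate 4, whereas BT replicate 2 and BT replicate 5 were each the lowest for 5.

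The dominant transcript was less close to the leading pair of this group than to some of its other genes. Pearson's r of ATMG00030 was 0.59 with ATMG00513 (rho 0.57, 0.63 without BD replicate 4 and BT replicate 1), above the lowest r within the group, and 0.44 with ATMG00510, 0.33 with ATMG00520 and 0.3 with ATMG00090. It was 0.21 with ATMG00980 (rho 0.19) and 0.08 with ATMG01000 (rho 0.18). Without BD replicate 4 and BT replicate 1, as for ATMG00513, these coefficients were 0.34 and 0.18. Leaving out instead BT replicate 4 and TT replicate 1, the plants farthest for ATMG00980, gave -0.14 with ATMG00980. Leaving out BD replicate 5 and BT replicate 4, those farthest for ATMG01000, gave 0.4 with ATMG01000. The highest r of ATMG00030 with another of the 26 genes was that with ATMG01360, 0.8 (rho 0.78, 0.84 without the 2 farthest plants). ATMG01360 had itself an r of 0.76 with ATMG00513 (rho 0.71, 0.67 without TT replicates 1 and 3). Its normalized counts were 85.2, 72.5, 51.6, 60.7 and 89.9 in BD, 58, 103, 58.8, 77.1 and 53 in BT, and 89.8, 60.6, 48, 62.9 and 58.3 in TT. BT replicate 2, BD replicate 5 and TT replicate 1 were high for ATMG01360 and for ATMG00030. Of all listed genes of sufficient count, the gene most like ATMG00030 over the 15 plants was AT4G09510 (r = 0.86), and the most like ATMG01190 was AT1G65650 (r = 0.805), both nuclear and outside the chromosome 2 copies. For ATMG00980 and ATMG01000 it was in both cases AT2G07675 (r = 0.998 and 0.963). Each of these values is the highest taken from 18783 genes over only 15 plants, so that it is a description and shows no relation. For ATMG00030 the next gene followed at 0.839, and for ATMG01190 at 0.763.

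Another pair was formed by ATMG01090, which RefSeq's note calls ATP synthase 9, and ATMG01370, which has no name. The note stands on AT2G07777, whose best match in TAIR10.1 covers 59.3% of it and includes no named mitochondrial gene. The match of AT2G07671, tied to ATMG01080, includes atp9. ATMG01090 had normalized counts of 28.7, 12.7, 24.1, 56.1 and 41.2 in BD, 45, 4.77, 32.7, 29.3 and 32.4 in BT, and 34.7, 10.8, 27.8, 16 and 17.2 in TT, and ATMG01370 had 8.19, 1.27, 13.2, 19.2 and 15 in BD, 17, 0, 7.46, 6.83 and 10.8 in BT, and 19.6, 6.5, 10.6, 9.6 and 9.56 in TT. BT replicate 2 was the lowest plant for both, although it was among the highest for ATMG00030 and ATMG01360. Their r was 0.85 (rho 0.77, 0.73 without BT replicate 2 and TT replicate 2). The most negative pair was ATMG00220, apocytochrome b, with ATMG01170, at -0.69 (rho -0.63, -0.44 without BD replicate 4 and BT replicate 2).

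Over all pairs, the mitochondrial transcripts moved together only loosely. Among the 3 genes with a mean of at least 50, the median r was 0.42 and all 3 pairs were positive. Among the 26 genes with a mean of at least 10, the median r over 325 pairs was 0.19, 227 pairs (69.8%) were positive, 37 exceeded 0.6, and r ranged from -0.69 to 0.96. Deviations from the group means gave a median of 0.21 with the same number of positive pairs. Without ATMG00980 and ATMG01000 the median over 276 pairs was 0.16. Among 41 plastid genes with a mean of at least 50, the median r over 820 pairs was 0.75 and 791 pairs were positive. The plastid genes had higher counts, and a low count lowers a correlation, so that the 2 medians are set side by side only. Against the summed count of all mitochondrial genes, which contains each gene itself, the 26 genes had a median r of 0.6 with 23 positive, 78 plastid genes one of 0.48 with 74 positive, and all 18783 genes with a mean of at least 10 one of 0.01.

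**Figure D3:**
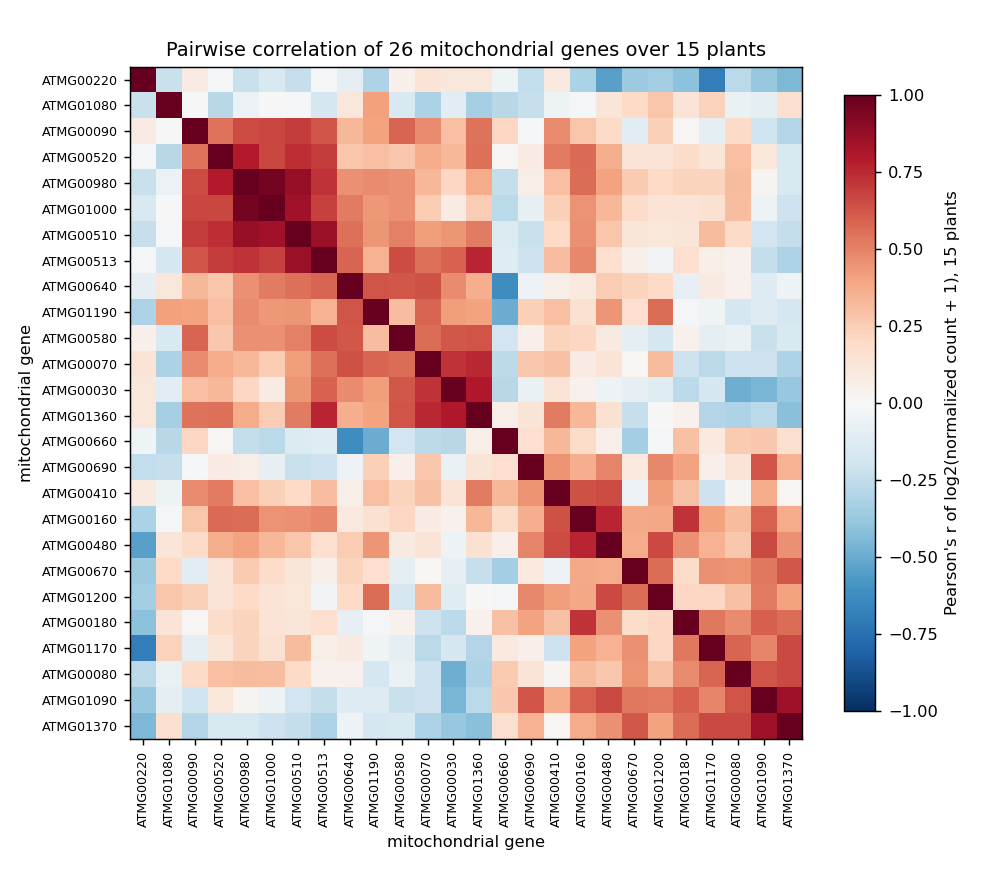
Pearson's r over 15 plants, as color, for each pair of the 26 mitochondrial genes with a mean count of 10 or more (both axes, same order, placed by average linkage clustering). The block of 6 genes around ATMG00980 and ATMG01000 has coefficients of 0.54 to 0.96, while the median over all 325 pairs is 0.19.

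The values of genes with known products have to be read beside their chromosome 2 copies. RefSeq's notes tie 37 of the 79 genes to a nuclear gene and give 20 of them a protein name, and for 30 a tied nuclear gene is itself listed. The notes also tie nuclear genes to 16 ATMG identifiers that are not among the 79. With these, 38 nuclear partners are listed in all. The nuclear partner had the higher mean normalized count in 20 of the 31 pairs compared. Adding all 38 partners, also those of identifiers outside the 79, raised the mitochondrial share to 0.00541% to 0.0128%. Over the 15 plants the mitochondrial share and the summed count of the partners had an r of 0.94 (rho 0.96, 0.93 without the 2 farthest plants). A read from a stretch that both copies share can be counted for either, so that these quantities are not independent.

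Among the ATP synthase genes, which make the rotary enzyme that produces ATP, the division of the reads between the copies differed from gene to gene. ATMG00480, subunit 8 of the F0 part, and AT2G07707 were assigned the same number of reads in each of the 15 plants, 204 in sum for each. Their normalized counts were 13.9, 14, 13.2, 22.3 and 15 in BD, 18, 7.62, 11.2, 18.5 and 9.73 in BT, and 16.9, 8.66, 9.6, 13.9 and 6.69 in TT. The groups overlapped, and the start of this gene is the sequence printed above that both genomes share. AT2G07707 matches the mitochondrial genome at 100% over its 477 bases, so that the equal estimates are not separate measurements. ATMG00430 and ATMG01150 likewise had identical values, and so had AT2G07701, with 5 assigned reads each.

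For ATMG00410 the counts of the copies moved in opposite directions. All 1158 bases of AT2G07741 match the mitochondrial genome of TAIR10.1 at 100%, so that full-length reads equal to this genomic sequence cannot tell the copies apart. The stretch matched by AT2G07741 is atp6, and 63.4% of the windows of this atp6 gene occur again within the mitochondrial genome. Reads from these windows can thus also be counted for another mitochondrial gene. How such reads were divided between the copies was not tested. ATMG00410, ATPase subunit 6-1, a subunit of the proton channel, had normalized counts of 33.6, 39.4, 12.1, 58.4 and 57.5 in BD, 52, 44.8, 29.9, 31.2 and 16.2 in BT, and 62.2, 5.41, 28.8, 27.7 and 8.61 in TT. AT2G07741 had 7.37, 0, 11, 0 and 0 in BD, 2, 0, 2.8, 9.76 and 14 in BT, and 0.889, 8.66, 10.6, 12.8 and 22 in TT. Plants that were low for the mitochondrial gene were high for the nuclear one, with an r of -0.74 (rho -0.83, -0.79 without TT replicates 2 and 5). The CV was 54.5% for ATMG00410, 98.2% for AT2G07741 and 33.5% for their sum, and ATMG00410 held between 28.1% and 100% of the summed count of a plant. Over the 13 pairs with a summed mean of at least 20, the sum had a lower CV than both of its parts in 7.

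For the other 3 genes the counts of the copies were neither identical nor opposite. ATMG01190, ATP synthase subunit 1, part of the catalytic head, had normalized counts of 83.6, 80.2, 95.5, 108 and 64.9 in BD, 57, 98.2, 78.4, 118 and 48.6 in BT, and 105, 79.1, 73, 90.7 and 55.5 in TT. The groups overlapped, and its r with AT2G07698 was -0.05 (rho 0.07, -0.1 without BT replicates 4 and 5), with a CV of 24.8%, 34.5% and 20.5% for the gene, its partner and their sum. ATMG01080, subunit 9 of F0, had a mean normalized count of 27.7 and its partner AT2G07671 one of 92.7, and ATMG01080 was below its partner in all 15 plants. ATMG01090 belongs to the ATP synthase genes by its note only. It and its partner AT2G07777 varied partly together, with an r of 0.43 (rho 0.54, 0.6 without BT replicate 2 and TT replicate 2) and a CV of 50.2%, 49.1% and 44.9% for the gene, its partner and their sum.

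**Figure D4:**
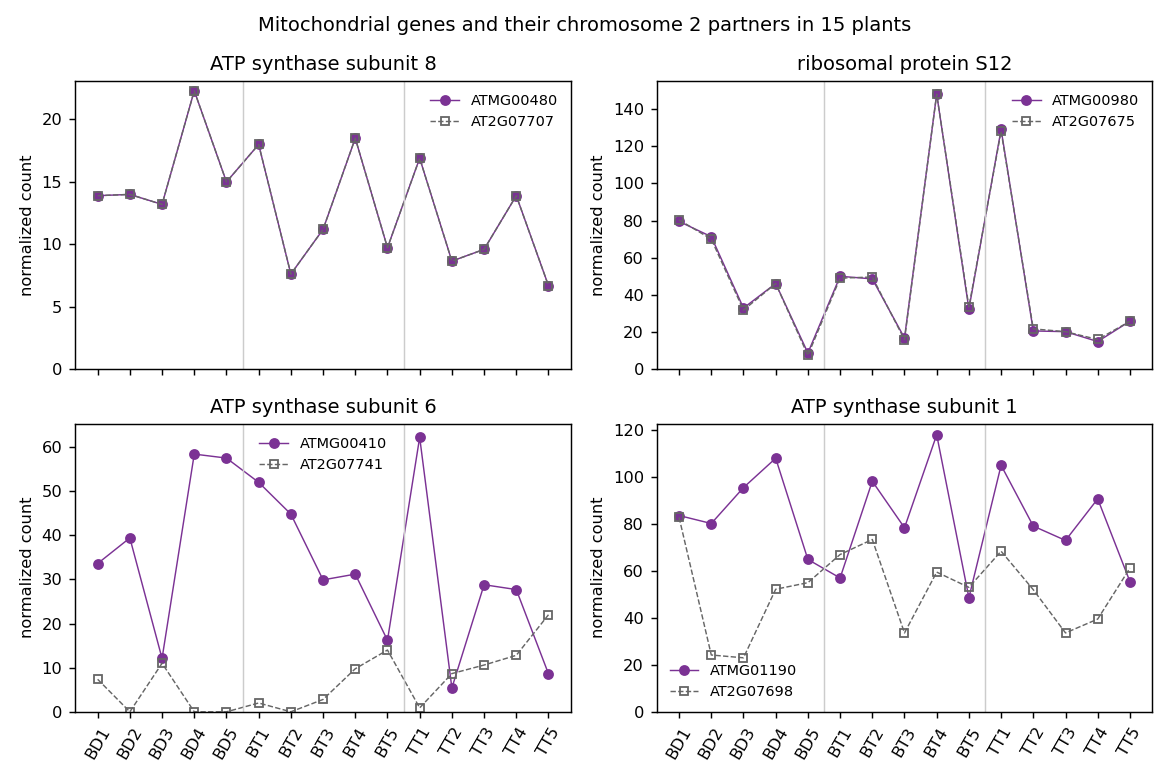
Normalized counts (y axis) of 4 mitochondrial genes (filled circles) and their chromosome 2 partners (open squares) in each of the 15 plants (x axis). Lines only help to follow a gene, since plants have no order. ATMG00480 and AT2G07707 coincide, ATMG00980 and AT2G07675 nearly coincide, ATMG00410 and AT2G07741 run against each other (r = -0.74), and ATMG01190 and AT2G07698 have an r of -0.05.

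The other named genes had few reads. Of the electron transport chain, ATMG00220 (apocytochrome b) had a mean normalized count of 15.4 against 64.6 for its partner AT2G07727, and ATMG00730 (cytochrome c oxidase subunit 3, of complex IV) 8.66 against 20.7 for AT2G07687. ATMG01280, called cytochrome c oxidase subunit II-like by its note, had 2.07 against 17.5 for AT2G07695. In TAIR10.1 the stretch matched by AT2G07695 includes no named mitochondrial gene. Of cytochrome c maturation, which attaches heme to cytochromes, ATMG00180 had a mean of 13.5, ATMG00960 of 4.02 and ATMG00900 of 1.01. Of the genes named as ribosomal proteins other than ATMG00980, ATMG00290 (S4) had a mean of 8.15, ATMG00210 (L5) of 4.5 and ATMG01270 (S7) of 1.77. ATMG00560, named as an OB-fold-like protein that binds nucleic acid, had a mean of 4.18, and its partner AT2G07715 one of 77.6. The stretch matched by AT2G07715 overlaps the mitochondrial gene rpl2.

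No mitochondrial gene was called between any pair of groups. The comparison of BD with BT asks for effects of ploidy, that of BT with TT for effects of polyspermic origin, and BD enters 2 of the 3 comparisons. In a limma fit of 15 plants to the log2(normalized count + 1) values of the 21450 genes, 0 of the 79 genes had a Benjamini-Yekutieli adjusted p under 0.05 in each pair, and so had 0% of all genes. The adjusted p of every mitochondrial gene was 1, and edgeR and DESeq2 on the recovered reads gave 0 calls as well. The median log2 fold change of the 79 genes was -0.12 for BT minus BD, -0.1 for TT minus BT and -0.12 for TT minus BD, where the median of all genes was 0 each time. Fold changes on this scale understate the change of genes with few counts.

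At an unadjusted p under 0.05, 2 of the 79 genes passed between BD and BT, where 1.73% of all genes (371 of 21450) passed. Between BT and TT it was 0 of 79, where 9.41% of all genes (2018) passed, and between BD and TT it was 5 of 79, where 2.40% of all genes (514) passed. With edgeR the counts were 2, 1 and 4 of 79, and with DESeq2 they were 1, 1 and 2. ATMG00570 had the smallest p in both comparisons with BD. Its normalized counts were 5.74, 3.82, 4.39, 4.61 and 6.25 in BD, 1, 0.953, 2.8, 1.95 and 2.16 in BT, and 3.56, 2.17, 1.92, 2.13 and 1.91 in TT. All BD plants were above all BT and all TT plants, but these values rest on 1 to 7 reads per plant. The log2 fold change was -1.14 (SE 0.28, unadjusted p = 0.000901 by limma) for BT minus BD and -0.84 (SE 0.28, unadjusted p = 0.00817 by limma) for TT minus BD, and the highest unadjusted p among the alternatives was 0.0339 and 0.102, both by DESeq2.

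The other genes of this count were ATMG00650, lower in BT than in BD by limma's unadjusted p, and ATMG00690, ATMG01280, ATMG00490 and ATMG01080 between BD and TT. ATMG00690 had 20.5, 12.7, 20.9, 35.3 and 28.7 normalized counts in BD and 16, 7.58, 15.4, 10.7 and 13.4 in TT. The lowest BD plant lay within the range of TT, and the log2 difference of TT minus BD was -0.82 (SE 0.29, unadjusted p = 0.011 by limma). ATMG01080, the F0 subunit 9, was the only gene higher in TT, with 36.4, 34.7, 39.4, 55.5 and 23 in TT against 8.19, 19.1, 28.5, 50.7 and 12.5 in BD. The ranges overlapped here too, the log2 difference was 0.85 (SE 0.38, unadjusted p = 0.0398 by limma), and it had a p of 0.128 without BD replicate 1. AT2G07671, the partner of ATMG01080, matches the mitochondrial genome at 100%. It had 78.7, 84, 84.5, 135 and 155 normalized counts in BD and 76.5, 65, 58.6, 98.1 and 67.9 in TT. On the log2 scale the summed count of both genes was 7.04 in BD and 6.79 in TT, so that the sum was not higher in TT. ATMG01280 (log2 difference of TT minus BD -1.42, SE 0.52) had at most 5.49 normalized counts in a plant, ATMG00490 (-1.1, SE 0.43) at most 5.09, and ATMG00650 (BT minus BD -1.07, SE 0.47) at most 8.91. ATMG00650 had an unadjusted p of 0.0375 by limma, of 0.117 without BT replicate 5 and of 0.149 by DESeq2, and ATMG00490 one of 0.0213 by limma, of 0.0665 without TT replicate 3 and of 0.102 by DESeq2.

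**Figure D5:**
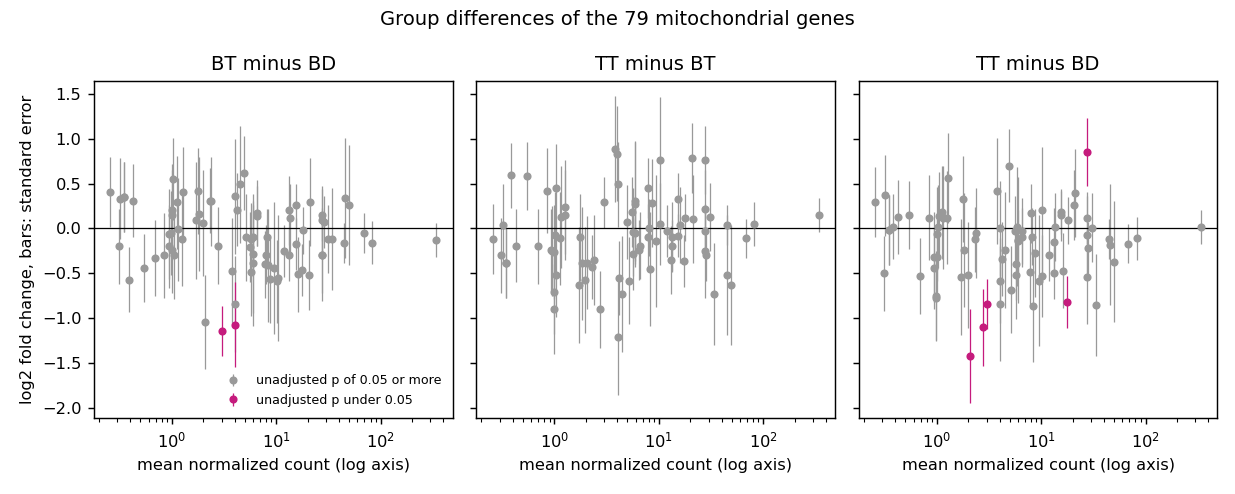
Log2 fold change (y axis, with its standard error as bar) of the 79 mitochondrial genes against their mean normalized count (x axis, log scale), for each pair of groups. Genes with an unadjusted p under 0.05, shown in color, number 2, 0 and 5 from left to right, and none passed after adjustment.

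For the most abundant transcripts the differences between groups were small against the spread between plants. The log2 difference of ATMG00030 was -0.13 (SE 0.19) for BT minus BD, 0.15 (SE 0.19) for TT minus BT and 0.02 (SE 0.19) for TT minus BD. BD had a mean normalized count of 349 ± 69.3 (SD, n = 5), BT one of 323 ± 91.7 (SD, n = 5), and TT one of 351 ± 59.9 (SD, n = 5). Summed over the 79 genes, TPM came to 268 ± 45 (SD, n = 5) for BD plants, to 247 ± 53.8 (SD, n = 5) for BT plants and to 258 ± 80.6 (SD, n = 5) for TT plants. Without TT replicate 1 the TT sum was 223 ± 16.6 (SD, n = 4).

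Nuclear genes that build and maintain mitochondria were looked at beside these transcripts. Of 15 genes for mitochondrial gene expression, such as the maturase nMAT2 that assists intron splicing and the RNase RNR1, 0 had an unadjusted p under 0.05 in each of the 3 pairs, with median log2 differences of 0.01, 0.2 and 0.15 in the order BT minus BD, TT minus BT and TT minus BD. Of 9 genes that maintain mitochondrial DNA, 1 passed between BT and TT, where 9.41% of all genes did, and 0 in the other pairs. It was POLIA, an organellar DNA polymerase. POLIA had 1362, 1536, 1137, 1354 and 1066 normalized counts in BT and 1746, 1739, 1864, 1344 and 1714 in TT, a log2 difference of 0.38 (SE 0.13, unadjusted p = 0.00983 and adjusted p = 1 by limma). All TT plants but replicate 4 were above all BT plants. Of 44 nuclear subunits of the respiratory complexes and the ATP synthase, 1 passed between BT and TT, COX6A of complex IV, with 3303 ± 156 (SD, n = 5) normalized counts in BT, against 2842 ± 243 (SD, n = 5) in TT, a log2 difference of -0.22 (SE 0.1, unadjusted p = 0.0374 by limma). The median log2 differences, in the same order, were -0.04, 0.2 and 0.1 for DNA maintenance and 0.02, -0.08 and -0.06 for the subunits.

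The list of alternative respiration and mitochondrial stress holds 15 listed genes for enzymes that pass electrons around the proton-pumping complexes and for stress responses. Of these, 1 passed as lower in BT than in BD, 1 as lower in TT than in BT and 2 as lower in TT than in BD, at an unadjusted p under 0.05. In these pairs 1.73%, 9.41% and 2.40% of all genes passed in either direction, and with so few genes these counts show nothing particular to the list. NDB3, an external NAD(P)H dehydrogenase, was lower in both comparisons with BD (log2 differences -0.96 and -0.95, SE 0.42 for each), with mean normalized counts of 13 ± 7.75 (SD, n = 5) for BD, 6.17 ± 3.41 (SD, n = 5) for BT, and 6.04 ± 2.73 (SD, n = 5) for TT. AOX1C, an alternative oxidase, had 13.3 ± 1.63 (SD, n = 5) in BD, against 7.47 ± 3.84 (SD, n = 5) in TT. NDA2, an internal dehydrogenase, had 422 ± 208 (SD, n = 5) in BT, against 218 ± 36.3 (SD, n = 5) in TT. The median log2 differences of this list were 0.14, -0.26 and -0.13. The adjusted p was 1 for each of these genes in limma's test.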

How the data were processed

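Poly(A) RNA of 60 samples, 4 technical replicates of each of 15 plants, was sequenced as unstranded single reads of 75 bases. Per the labels and the methods of the study, the authors trimmed the reads (Trimmomatic 0.38), aligned them to TAIR10 (STAR 2.6.0c, multiple places allowed), estimated expression with Salmon 0.11.3 and filtered and normalized the reads by DESeq2 1.22. Deposited were normalized counts (a signal in which reads are divided by a size factor), TPM and rlog values on a log2 scale.

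Whole read numbers, as estimated by Salmon, were recovered from the normalized counts (100% whole within 0.001). They gave a depth of 19534646 to 30756482 reads per plant. The main test was limma (version 3.58.1 in R 4.3.3) with log2(normalized count + 1) as the response of 21450 genes, with trend, 2-sided, with Benjamini-Yekutieli adjustment, tested on simulated data with 200 changed genes. edgeR 4.0.16, DESeq2 1.42.0 on recovered reads, TPM (+ 0.1), rlog, pseudocounts of 0.5 and 5, a minimum mean of 10, fits of 2 groups, a replicate block and leaving out each plant were alternatives. Correlations are on log2(normalized count + 1) and carry no p-value. All other values came from Python 3.11.15 (pandas 2.3.3, numpy 2.4.6, scipy 1.17.1), and figures from matplotlib 3.10.9.

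Genes were named by abundance, variability, smallest p per comparison and respiratory or ribosomal lists. The members and lists were chosen with earlier results of these data known. Names of mitochondrial genes come only from notes on nuclear genes in RefSeq's TAIR10.1 annotation, and planned lists of mitochondrial complexes were not used for roles. The labels number the plants, and the main test did not treat these numbers as pairs.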

Additional observations from a re-analysis of the deposited data

Results flagged for a closer look

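In 48 sets of 5 plants (1 measure in 1 group), a plant's gap to the nearest other plant was compared with the range of its group, against Dixon's 95% critical value of 0.71. Chance alone marks about 1 in 20 such sets, and 6 of 48 were marked, 5 of them by the same plant, so that they are not independent. TT replicate 1 stood apart with a mitochondrial share of 0.0077% of the normalized counts (the next TT plant had 0.00417%, gap over range 0.869). The same plant stood apart for ATMG00980 with a normalized count of 129 (next 25.8, 0.904), ATMG01000 with 96 (next 30.6, 0.831), ATMG00090 with 66.7 (next 43, 0.738) and ATMG00160 with 43.6 (next 23.9, 0.781). BT replicate 4 stood apart for ATMG00980 with 148 (next 50, 0.747). Without TT replicate 1 the TT mean of ATMG00980 was 20.4 ± 4.45 (SD, n = 4), and without BT replicate 4 the BT mean was 37 ± 15.6 (SD, n = 4).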

How the results depend on the processing

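Under every alternative that was run, 0 genes passed the adjusted threshold in each of the 3 pairs of groups. The number of mitochondrial genes with an unadjusted p under 0.05 was less stable. Between BD and BT (2 genes) it was 1 by DESeq2, 1 with only the 2 groups in the fit, 1 on rlog values and 0 with a minimum mean of 10, which leaves 26 genes, and it lay between 1 (without BT replicate 4 or 5) and 4 (without BT replicate 2) when single plants were left out. Between BT and TT (0 genes) it was 1 by DESeq2, 3 on TPM, 1 by edgeR, 1 with only the 2 groups, 1 with a pseudocount of 0.5 and 1 on rlog values, and between 0 and 2 with single plants left out (2 without BT replicate 1, 2 or 4 and without TT replicate 1, 4 or 5). Between BD and TT (5 genes) it was 2 by DESeq2, 2 with a minimum mean of 10, and between 3 (without TT replicate 3) and 8 (without TT replicate 1). The cause of these changes was not tested, apart from the fewer genes left by the minimum. The mean mitochondrial share of 0.00487% was 0.0258% of TPM and 0.00791% with the chromosome 2 partners added, and 0.00467% to 0.00496% with single plants left out. The median correlation of 0.42 over 3 pairs was 0.19 over 325 pairs at a minimum mean of 10, and ranged from 0.32 (without BT replicate 5) to 0.6 (without BD replicate 4). No ribosomal RNA gene is listed, so that leaving these genes out changed nothing. Of 1560 alternative values of 66 log2 fold changes, 86 had the other sign, none of them among the 7 with an unadjusted p under 0.05. With the replicate number as a block, 3, 3 and 5 mitochondrial genes had an unadjusted p under 0.05 and none passed after adjustment. Deviations from the group means correlated at 0.0959 on average between plants of the same number (15 pairs, 9 over 0.1, lowest -0.7). Between plants of different number and group the mean was -0.0248 (60 pairs, 21 over 0.1, lowest -0.559). Plants of the same number were thus slightly more alike on average, though with the lowest single value, and the numbers were not taken to pair plants. A total of 837 to 2037 mitochondrial reads per plant limits what can be seen, and 38 of the 79 genes have a mean normalized count under 5.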
